A study of Mus musculus with 12 samples.

Results

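The genes described here are 48 cell cycle and DNA replication genes, chosen by symbol and followed through whole mouse embryonic hearts at 2 stages and in 2 genotypes. Of the 48, 47 had a row of their own among the 20368 genes of the deposited table, and all 47 passed the filter on low values. *Foxm1*, a transcription factor of late cell cycle genes, was only listed in a row merged with its neighbour *4933413G19Rik* and was not counted. The 47 comprised 17 S phase genes, 17 mitotic genes, 9 other cyclins and cyclin-dependent kinases (CDKs) and 4 regulators. The rule that picks them is the list of symbols, with no threshold on a measured value.

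Hearts were collected at embryonic day 11.5 (E11.5) and E12.5 from CD1 mice, with 3 libraries per group. All embryos carried *Mesp1Cre*, a Cre driver active in the early mesoderm that gives rise to most heart cells. Controls were *Mesp1Cre;Hira+/fl* and mutants were *Mesp1Cre;Hira-/fl*, so controls also lost 1 *Hira* allele in Cre-expressing cells, and the mutants carried a null allele in every cell. *Hira* encodes a chaperone that places histone H3.3 into chromatin outside DNA replication. Cells of other origin in the heart, such as neural crest derivatives, keep the floxed allele in the mutants. Nothing in the labels says that the libraries came from separate litters, and p-values then measure only the spread between these samples.

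Cells copy their DNA in S phase and divide in mitosis. Before S phase, the origin recognition complex, CDC6 and CDT1 load a ring of the MCM2 to MCM7 proteins on DNA. CDC45 and the GINS complex then turn that ring into the replicative helicase, and ribonucleotide reductase and thymidylate synthase supply deoxynucleotides. Cyclin D with CDK4 or CDK6 and cyclin E with CDK2 release E2F factors from the retinoblastoma family, and E2F drives S phase genes. Later, the MuvB complex with MYBL2 and FOXM1 drives mitotic genes, often through the CHR element and CCAAT boxes. Cardiomyocytes of the midgestation heart divide actively, and the compact wall and trabeculae differ in how much.

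The libraries held between 11994148 and 17483982 counts, and the 47 genes took 0.740% to 0.839% of them. Levels are given as CPM, counts scaled to a common library size by TMM, and levels between genes as RPKM, which also divides by gene length. Cardiomyocyte markers were abundant in every library, summing to 25530 to 34210 CPM over 11 genes. The summed CPM of the erythroid markers with a row was 3817 to 6349 in the E12.5 controls and 2108 to 2732 in the E12.5 mutants, and in all 6 libraries of E11.5 it was 4351 to 5659. *Hira* itself, counted over the whole gene and so including exons outside the deletion, was at 77.8 ± 8.66 CPM in controls and 64.9 ± 8.99 CPM in mutants at E11.5, and at 74.9 ± 12.8 CPM and 74.4 ± 5.29 CPM at E12.5 (SD, n = 3). By Y-linked counts, 3 of the E11.5 controls and 1 library of each other group were male. The third E11.5 mutant library, the shallowest, stood apart from its group and was low for *Kif11*, *Kif20a* and *Ccne2*, among other genes. In bulk hearts, fewer cells in cycle and less RNA per cycling cell cannot be told apart.

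All 47 genes were expressed, at levels that spread widely within each role. Among the S phase genes the mean over the 12 libraries ran from 9.50 RPKM for *Cdc6* to 241 RPKM for *Pcna*, the sliding clamp of DNA polymerases, with a median of 57.6 RPKM. The 6 subunits of the MCM ring lay closer together, at 57.6 RPKM for *Mcm4*, 60.2 for *Mcm5*, 65.2 for *Mcm2*, 74.3 for *Mcm3*, 100.1 for *Mcm6* and 119.8 for *Mcm7*. Among the mitotic genes the lowest was *Cenpf*, a kinetochore protein, at 11.6 RPKM, and the highest was *Top2a*, the topoisomerase that untangles sister chromatids, at 122.7 RPKM, with a median of 41.2 RPKM. Of the D-type cyclins, *Ccnd3* was at 159.6 RPKM, *Ccnd2* at 60.7 RPKM and *Ccnd1* at 37.0 RPKM. *Cdk4* was the highest of the 47 at 485.5 RPKM, while the related kinase *Cdk6* was the lowest at 2.82 RPKM. The regulators lay between 3.09 RPKM for *E2f2* and 22.1 RPKM for *Cdkn1b*, which encodes the CDK inhibitor p27.

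The promoters of 5 genes are shown because they carry the elements through which both classes are thought to be driven, or lack them. They are the 150 bases before the RefSeq start (GRCm38.p6), on the strand of the gene, with every match to the E2F site (written TTGGCGC, or else as TTCGCGC, or else as TTCCCGC), the CHR element (TTTGAA) and the CCAAT box in capitals, read on both strands. The S phase genes are *Tyms* (ENSMUSG00000025747, gene at chr5:30058202-30073617, minus strand; promoter at chr5:30073626-30073775), which makes thymidylate, and *Mcm6* (ENSMUSG00000026355, gene at chr1:128331590-128359664, minus strand; promoter at chr1:128359706-128359855). The mitotic genes are *Ccnb2*, a B-type cyclin (ENSMUSG00000032218, gene at chr9:70407692-70421547, minus strand; promoter at chr9:70421555-70421704), *Top2a* (ENSMUSG00000020914, gene at chr11:98992943-99024189, minus strand; promoter at chr11:99024190-99024339) and *Kif11*, the kinesin that separates spindle poles (ENSMUSG00000012443, gene at chr19:37376403-37421859, plus strand; promoter at chr19:37376232-37376381).
Tyms: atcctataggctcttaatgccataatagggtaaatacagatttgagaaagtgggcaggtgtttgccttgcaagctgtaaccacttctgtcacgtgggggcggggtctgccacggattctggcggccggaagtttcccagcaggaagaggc
Mcm6: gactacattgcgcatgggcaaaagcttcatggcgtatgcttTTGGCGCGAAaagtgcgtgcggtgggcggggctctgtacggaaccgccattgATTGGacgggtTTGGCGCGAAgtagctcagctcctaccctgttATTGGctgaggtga
Ccnb2: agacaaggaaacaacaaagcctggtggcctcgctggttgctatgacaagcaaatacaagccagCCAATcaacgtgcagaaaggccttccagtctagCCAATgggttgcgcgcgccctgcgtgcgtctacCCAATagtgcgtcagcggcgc
Top2a: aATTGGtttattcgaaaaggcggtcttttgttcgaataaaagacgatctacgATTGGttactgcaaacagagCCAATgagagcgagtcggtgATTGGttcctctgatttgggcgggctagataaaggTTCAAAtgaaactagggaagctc
Kif11: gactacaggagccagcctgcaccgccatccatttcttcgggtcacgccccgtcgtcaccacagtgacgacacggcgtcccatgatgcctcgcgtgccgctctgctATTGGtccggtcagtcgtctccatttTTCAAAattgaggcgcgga

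In *Mcm6* each of 2 runs of capitals holds overlapping E2F sites on opposite strands, and *Ccnb2* has 3 evenly spaced CCAAT boxes. The *Tyms* stretch holds none of the motifs. Over the 250 bases before the start, an E2F site was present in 6 of 14 S phase promoters with a RefSeq entry, in 3 of 15 mitotic promoters and in 6.79% of all 27025 promoters. A CHR element was present in 2 of 14 S phase promoters, 6 of 15 mitotic promoters and 16.3% of all promoters. The CCAAT box was found in 10 of 14 and 14 of 15, and in 34.5% of all promoters. Between stages, S phase genes with and without an E2F site had like differences, with medians of -0.17 over 6 genes and -0.11 over 8 genes in controls and -0.19 over both sets in mutants, on the log2 scale.

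The first comparison asked whether the cell cycle genes differ between the stages in control hearts. Genes of S phase were mostly lower at E12.5 than at E11.5 in controls, and mitotic genes lay on both sides. *Tyms* fell, and by edgeR, the main test, it was the only one of the 47 with an adjusted p of 0.05 or less. A gene was called changed where edgeR's quasi-likelihood test gave p adjusted over all genes by Benjamini-Hochberg of 0.05 or below and the fold was at least 1.5. By that rule 0 of the 47 were called, against 5.28% of the 12252 genes tested. At an unadjusted p under 0.05 there were 15 of the 47, against 32.8% of all genes, and DESeq2 called 1, *Cdk6*. At an adjusted p of 0.05 or less alone, DESeq2 gave 3 higher and 6 lower of the 47, against 2193 of 12252 genes. They were *Ccne1*, *Cdk1*, *Cdk4*, *Cdk6*, *Cenpf*, *Gins1*, *Kif11*, *Pcna* and *Tyms*.

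*Tyms* was at 86.2, 81.2 and 106.6 CPM in the E11.5 controls and at 68.4, 62.3 and 67.2 CPM in the E12.5 controls. The groups did not overlap, and *Tyms* fell by 0.47 on the log2 scale (SE 0.12, adjusted p = 0.033), among 5.81% of all genes that were lower at that adjusted p. With a term for the sex of the embryo, *Tyms* had an adjusted p of 0.52. With each of the 6 libraries left out in turn its adjusted p was above 0.05 in 5 cases, at 0.061 to 0.13, the exception being the second E11.5 control. *Tyms* has an annotated pseudogene, which could share its reads. The same holds for *Ccnb1*, *Ccnb2* and *Ccnd3*, with 1 each, and for *Pcna*, with 2.

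Other S phase genes showed the same direction without passing the edgeR test. *Pcna* was at 302.9, 343.9 and 413.4 CPM in E11.5 controls and at 276.6, 257.0 and 278.6 CPM in E12.5 controls, a log2 difference of -0.39 (SE 0.12, adjusted p = 0.059). *Gins1*, a GINS subunit, was at 35.0, 33.2 and 39.4 CPM and then at 26.8, 27.3 and 30.2 CPM, a log2 difference of -0.36 (SE 0.11, adjusted p = 0.059). For both genes every E12.5 control lay below every E11.5 control. *Rfc3*, a subunit of the clamp loader, and *Cdc45* had log2 differences of -0.29 and -0.24. Of the 17 S phase genes, 14 were lower at E12.5, with a median log2 difference of -0.17 against 0.01 over all genes. With a sex term, 16 of the 17 were lower, with a median of -0.16. That fit rests on the only male E12.5 control, so it measures the stage difference less closely. In 7 of the 17 the E12.5 controls lay wholly below the E11.5 controls, where 18.5% of all genes did so. The 3 genes with higher means were *Pola2*, *Rrm1* and *Rrm2*, at differences between 0.03 and 0.11.

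Mitotic genes split by gene in the controls. *Cdk1*, the kinase that starts mitosis, was at 267.6, 262.9 and 337.1 CPM at E11.5 and at 219.1, 226.4 and 228.8 CPM at E12.5, a log2 difference of -0.36 (SE 0.11, adjusted p = 0.058). Its cyclins *Ccnb1* and *Ccnb2* were also lower, by -0.25 and -0.15 on that scale, without overlap between stages. *Kif11* went the other way, from 115.6, 142.7 and 111.1 CPM to 189.4, 145.6 and 157.5 CPM, a log2 difference of 0.41 (SE 0.13, adjusted p = 0.061). *Cenpf* was at 112.7, 117.2 and 122.8 CPM and then at 174.4, 142.3 and 136.5 CPM, a difference of 0.36 (SE 0.11, adjusted p = 0.057). The kinetochore motor gene *Cenpe* and *Top2a* were also higher in every E12.5 control than in any E11.5 control. In all, 9 mitotic genes had higher means and 8 had lower means, with a median log2 difference of 0.01. Among the 47 genes, 7 were higher and 13 lower without overlap, against 18.9% and 18.5% of all genes.

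Among the genes that open the cycle, *Cdk4* and *Cdk6* had differences of opposite sign between the stages. *Cdk6* was at 3.20, 7.89 and 3.36 CPM in the E11.5 controls and at 12.2, 9.37 and 8.51 CPM in the E12.5 controls, the largest difference among the 47 at 1.05 on the log2 scale (SE 0.33, adjusted p = 0.060). The second E11.5 control was close to the E12.5 controls, and without it *Cdk6* was called. *Cdk4* was at 691.3, 676.9 and 813.9 CPM and then at 536.6, 549.4 and 611.2 CPM, a difference of -0.36 (SE 0.11, adjusted p = 0.052). Its exons share 641 bases with *Tspan31* on the opposite strand, and the use of strand in counting is not given in the sources used here. *Ccne1*, a cyclin E gene, had a difference of -0.30 (adjusted p = 0.070). *Mybl2* was at 47.9, 45.1 and 44.3 CPM and then at 41.2, 38.0 and 36.0 CPM, a difference of -0.26 (SE 0.10, adjusted p = 0.10), with every E12.5 control below every E11.5 control. *Cdkn1b* was higher in all 3 E12.5 controls, at 50.1 to 59.4 CPM against 42.5 to 49.2 CPM, and its adjusted p was 0.13.

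In the mutants the S phase genes again had lower means at E12.5, in all 17 cases. None of the 47 was called, against 0.556% of 12238 genes, 6 had an unadjusted p under 0.05, against 9.27% of all genes, and DESeq2 called 1, *E2f2*. At an adjusted p of 0.05 or less alone, DESeq2 gave that gene only among the 47, against 254 of 12238 genes. The median log2 difference was -0.19 for the S phase genes, -0.08 for the mitotic genes and -0.01 over all genes. Without overlap, 14 of the 47 were lower and 2 were higher, against 7.98% and 9.42% of all genes. The 8 S phase genes among the 14 were *Mcm3*, *Mcm5*, *Mcm6*, *Mcm7*, *Cdc6*, *Cdt1*, *Cdc45* and *Tyms*, of which 4 encode subunits of the MCM ring.

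*E2f2*, an activating E2F, was at 21.2, 19.2 and 16.6 CPM in E11.5 mutants and at 13.6, 12.9 and 11.4 CPM in E12.5 mutants, a log2 difference of -0.60 (SE 0.15, adjusted p = 0.20). *Tyms* was at 88.9, 80.6 and 110.9 CPM and then at 68.6, 71.1 and 70.8 CPM, a difference of -0.42 (SE 0.13, adjusted p = 0.32), close to the value in controls. *Cdc6* was at 53.1, 54.7 and 43.7 CPM and then at 39.5, 42.8 and 34.1 CPM, a difference of -0.39 (SE 0.13, adjusted p = 0.38). All 3 genes were lower in every E12.5 mutant than in any E11.5 mutant. *Mybl2* was at 43.2, 47.9 and 51.1 CPM and then at 35.5, 38.1 and 40.3 CPM, a difference of -0.33 (SE 0.12, adjusted p = 0.40). *Cdt1* was at 70.8, 72.9 and 84.6 CPM and then at 66.6, 63.2 and 57.6 CPM, a difference of -0.29. *Ccnb1* was at 169.9, 187.9 and 185.8 CPM and then at 153.4, 164.3 and 143.8 CPM, a difference of -0.25. These genes, too, showed no overlap between stages. The cyclin D gene *Ccnd1* was at 155.1, 145.4 and 148.7 CPM and then at 139.0, 137.3 and 121.9 CPM, a difference of -0.18. The 2 that were higher without overlap were *Cdk2* and *Cdkn1b*, at 0.11 and 0.20.

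The stage comparisons in the 2 genotypes share no library. Of the 17 S phase genes, 14 were lower at E12.5 in both genotypes, 0 were higher in both and 3 differed in sign. Of the 17 mitotic genes, 8 were lower in both, 5 higher in both and 4 differed in sign. Over all 12048 genes tested in both, 74.6% had the same sign, and over the 47 genes 78.7%, so the shared direction was not particular to them. Whether a stage difference itself differed between genotypes is the same test as that between the mutant effects, given after the mutant comparisons.

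**Figure D1:**
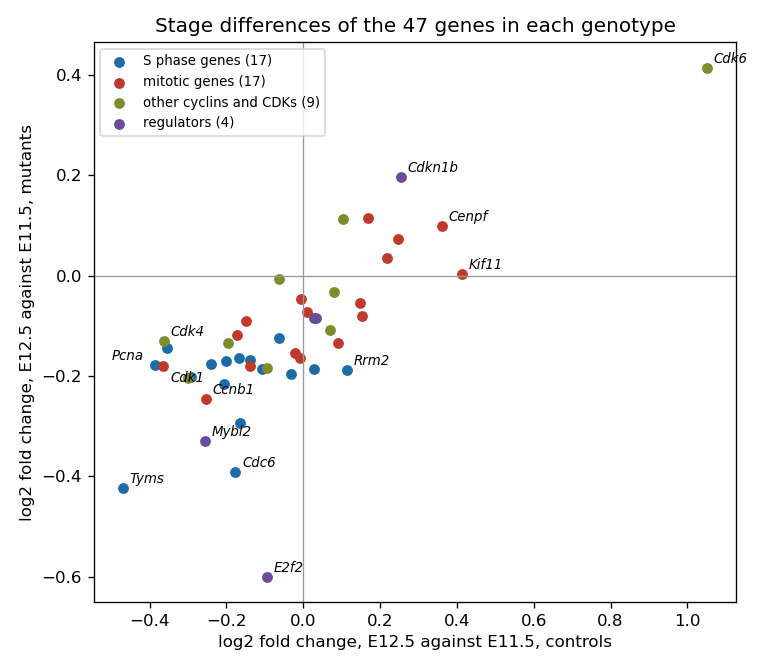
Log2 fold change from E11.5 to E12.5 in controls (x axis) and in mutants (y axis) for each of the 47 genes, coloured by role. The blue S phase genes gather in the lower left corner, with *Tyms* at -0.47 and -0.42, while *Cdk6* lies alone at the upper right and *E2f2* is low only on the y axis.

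Averaged in each library, the 17 S phase genes were lower at E12.5 without overlap in both genotypes. The mean of the 17 mitotic genes differed by 0.044 in controls and by -0.048 in mutants, with overlap in both. The mean of log2(CPM + 0.5) over the S phase genes at E11.5 was 6.98, 7.05 and 7.17 in controls and 7.03, 7.07 and 7.02 in mutants. At E12.5 it was 6.91, 6.90 and 6.90 in controls and 6.81, 6.92 and 6.82 in mutants. Every E12.5 library was below every E11.5 library, and the genotypes overlapped at each stage. Over the mitotic genes the mean was 7.12 to 7.24 in controls and 7.13 to 7.33 in mutants at E11.5, against 7.22 to 7.25 and 7.14 to 7.25 at E12.5, and the stages overlapped in both genotypes. The S phase mean minus the mitotic mean went from -0.13 ± 0.070 in E11.5 controls to -0.33 ± 0.013 in E12.5 controls and from -0.20 ± 0.084 to -0.35 ± 0.032 in mutants (SD, n = 3). It was -0.14, -0.19 and -0.052 in the E11.5 controls and -0.34, -0.34 and -0.32 in the E12.5 controls. In the mutants it was -0.25, -0.25 and -0.11 at E11.5 and -0.32, -0.33 and -0.38 at E12.5. The only male E12.5 control was at -0.32, and the E11.5 controls were all male. These scores were given no test.

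**Figure D2:**
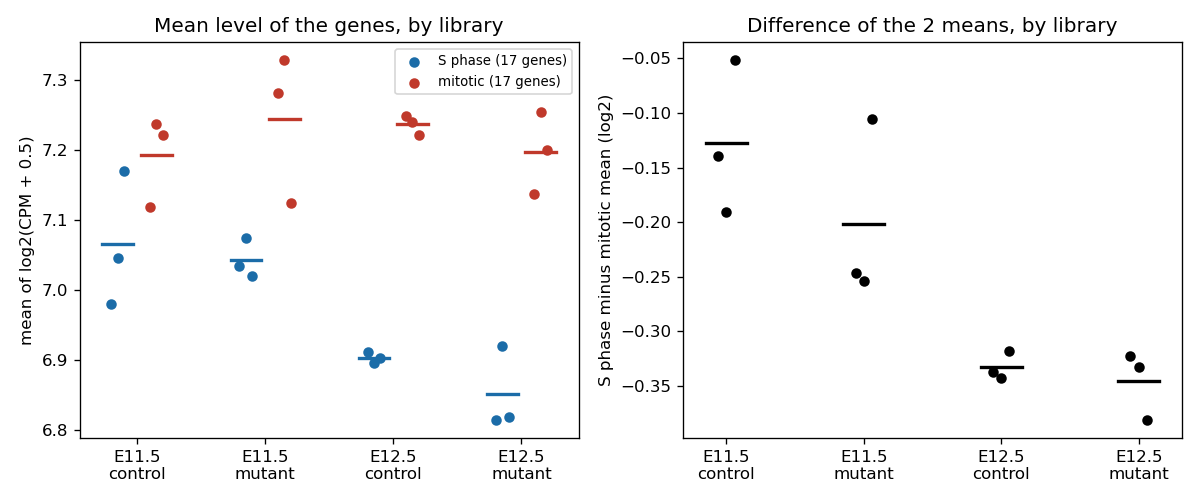
Left, the mean of log2(CPM + 0.5) over 17 S phase genes (blue) and 17 mitotic genes (red) in each library, and right, the first mean minus the second. Points are libraries and bars are group means (n = 3), and the E12.5 libraries of both genotypes lie at -0.32 or below on the right, under all E11.5 libraries.

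Gene length moved with these stage differences. Over all genes the log2 difference between stages was correlated with the length of the gene, at a Spearman rho of 0.485 in controls and 0.345 in mutants, as a description across genes that share the same libraries. Genes of up to 1500 bases had a median of -0.28 in controls, and genes of over 4000 bases one of 0.19. The S phase genes are shorter, with a median of 2872 bases against 3416 for the mitotic genes, and *Kif11*, *Cenpe* and *Cenpf*, which were higher, are all over 4000 bases. *Gins1* (1087 bases), *Rfc3* (1215), *Pcna* (1260) and *Cdk4* (1347), which were lower, are all in the class of up to 1500 bases. Against the median of all genes in the same length class, 15 of 17 S phase genes were lower in controls and 17 of 17 in mutants, while 6 and 14 of the 17 mitotic genes were. With the trend on length taken out of each library, a step chosen after seeing the data, the S phase mean was still lower at E12.5, by -0.13 in controls and -0.17 in mutants, without overlap. The S phase minus mitotic difference between stages shrank from -0.21 to -0.12 in controls and from -0.14 to -0.096 in mutants, and *Cenpf* went from 0.36 to -0.0076. In controls *Pcna* went from -0.39 to -0.16, *Gins1* from -0.36 to -0.089 and *Cdk4* from -0.36 to -0.16. The *Tyms* difference still had an adjusted p of 0.05 or less after this step. In 1 fit of all 12 libraries, without this step, 0 of the 47 did. Epicardial markers also differed between the control stages, with 4 of 6 called lower at E12.5 and a summed level of 345 to 515 CPM against 518 to 793 CPM, while in mutants 0 of 6 were called. Of 10 erythroid markers, 4 were called lower and 1 higher in controls, and 7 were called lower in mutants, with a median log2 difference of -1.86. Of the macrophage markers, 1 of 7 was called higher in controls and 4 of 6 in mutants. The part of these cells in the S phase result was not tested.

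**Figure D3:**
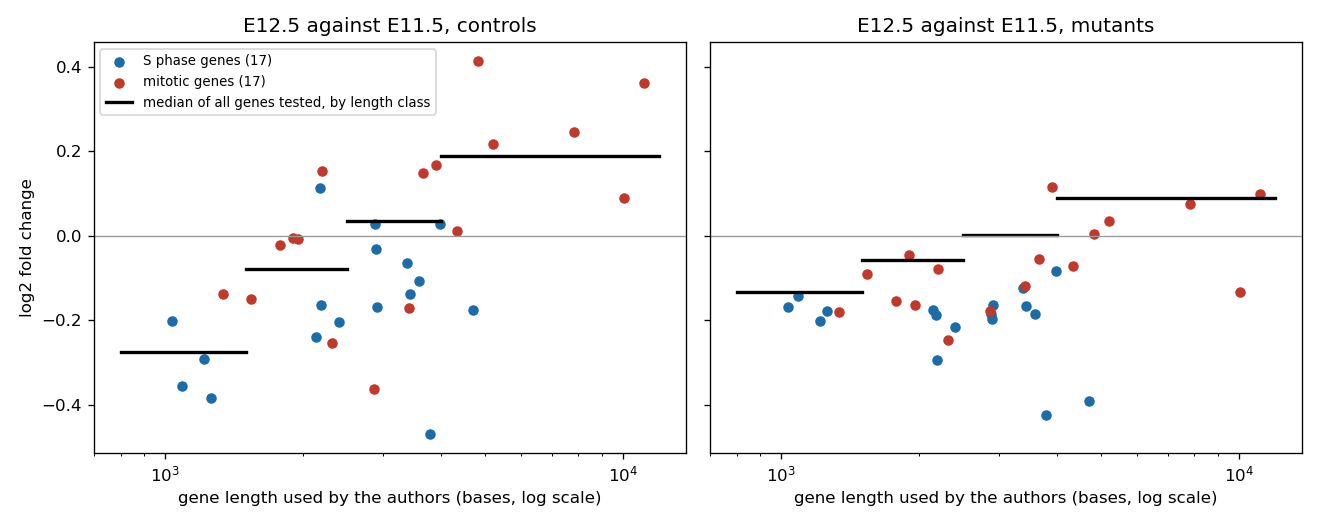
Log2 fold change from E11.5 to E12.5 against gene length in bases (log axis) for the S phase genes (blue) and mitotic genes (red), in controls at left and mutants at right. Black lines are the medians of all genes tested in 4 length classes, which rise from -0.28 to 0.19 in controls and from -0.13 to 0.09 in mutants.

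The second comparison asked whether loss of *Hira* changed the cell cycle genes. At E11.5 none of the 47 was called in mutants, against 0.115% of 12197 genes, 1 had an unadjusted p under 0.05, against 10.2% of all genes, and DESeq2 called 0. At E12.5 none was called, against 2.95% of 12257 genes, 9 had an unadjusted p under 0.05, against 21.4%, and DESeq2 called 0. Over the mean of both stages none was called, against 3.38% of 12270 genes, 1 had an unadjusted p under 0.05, against 19.5%, and DESeq2 called 0. At an adjusted p of 0.05 or less alone, DESeq2 gave 0 of the 47 each time. Of all genes it gave 275 of 12197 at E11.5, 866 of 12257 at E12.5 and 1227 of 12270 over both stages. The precision limits what these counts can exclude. The 95% interval of the fold lay within 1.5 in either direction for 42 of the 47 genes at E11.5, for 46 at E12.5 and for 46 over both stages. The exception at E12.5 was *Cdk6*.

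At E11.5 the mutant values were closest to a change in *E2f2*, at 21.2, 19.2 and 16.6 CPM against 16.4, 13.0 and 12.4 CPM in controls, a log2 difference of 0.45 (SE 0.17, adjusted p = 0.42). *Plk1*, a mitotic kinase, was at 94.9, 97.7 and 96.9 CPM against 82.2, 90.1 and 75.8 CPM, a difference of 0.22 (SE 0.12, adjusted p = 0.59). *Aurkb*, the kinase of the chromosomal passenger complex, was at 60.5, 58.4 and 58.7 CPM against 53.4, 55.8 and 49.3 CPM, a difference of 0.16 (SE 0.11, adjusted p = 0.74). In these 3 genes and in *Aurka*, *Cdc20* and *Cdkn1b*, every mutant lay above every control. These are 6 higher and 0 lower without overlap among the 47, against 8.32% and 7.99% of all genes. *Gins1* was at 34.4, 29.3 and 32.1 CPM in mutants against 35.0, 33.2 and 39.4 CPM, a difference of -0.17. *Ccne1* was at 55.1, 71.2 and 72.7 CPM against 56.6, 58.2 and 62.1 CPM, a difference of 0.17. *Pcna* was at 306.7, 328.3 and 311.2 CPM against 302.9, 343.9 and 413.4 CPM, a difference of -0.17. The groups overlapped for these 3 genes. The S phase genes had a median log2 difference of -0.01, with 9 of 17 lower, and the mitotic genes one of 0.05, with 4 of 17 lower. All E11.5 controls were male, and of the mutants only the third was. With a sex term the medians were -0.05, with 11 of 17 lower, and 0.04, with 8 of 17 lower. The S phase mean minus the mitotic mean differed by -0.075 between E11.5 mutants and controls, with overlapping groups. With the length trend removed it differed by -0.066, at -0.24 to -0.22 in mutants and -0.19 to -0.12 in controls, without overlap. Cell type markers also differed at E11.5. All 8 endothelial markers were higher in mutants, with a median log2 difference of 0.46 and 0 called. All 6 epicardial markers were lower, with a median of -0.73 and 0 called. All 6 macrophage markers tested were lower, with a median of -1.93 and 1 called. The part of these cells in the E11.5 values was not tested.

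The third E11.5 mutant library, the only male of its group, was low for some of the 47 genes and high for others. In the E11.5 mutants *Top2a* was at 677.7, 744.1 and 492.6 CPM and *Rrm1* at 383.2, 429.0 and 277.8 CPM. By contrast, *Cenpa* was at 122.0, 119.0 and 170.4 CPM and *Cdk4* at 631.1, 628.5 and 820.1 CPM. *Kif11* was at 161.4, 169.1 and 84.1 CPM in the E11.5 mutants, *Kif20a*, a kinesin of cytokinesis, at 183.9, 187.9 and 94.5 CPM, and the cyclin E gene *Ccne2* at 42.9, 46.5 and 15.1 CPM. These genes had the widest errors at E11.5 beside *Cdk6*, with SE of 0.24, 0.26 and 0.36. Without this library 0 of the 47 were called as well. *Kif20a* shares 1271 bases of exon with *Cdc23* on the opposite strand, and *Ccne2* 609 bases with *Ints8*.

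At E12.5 the lowest p among the 47 belonged to *Ccne1*, which was at 55.0, 60.2 and 58.6 CPM in mutants and at 45.8, 45.5 and 52.3 CPM in controls. The groups did not overlap, and the log2 difference was 0.27 (SE 0.09, 95% interval 0.085 to 0.46, adjusted p = 0.096). *Rrm2*, the inducible subunit of ribonucleotide reductase, was at 185.1, 206.5 and 177.5 CPM in mutants and at 243.2, 226.3 and 208.1 CPM in controls, a difference of -0.25 (SE 0.08, adjusted p = 0.12). *Bub1b*, a spindle checkpoint kinase, was at 162.6, 168.1 and 175.5 CPM against 195.0, 197.2 and 179.1 CPM, a difference of -0.18 (SE 0.07, adjusted p = 0.19). For each of these genes the groups did not overlap. Without overlap, 4 of the 47 were higher, namely *Tyms*, *Aurka*, *Ccne1* and *Cdk4*, and 3 were lower, namely *Rrm2*, *Bub1b* and *Cenpe*, against 13.7% and 12.6% of all genes.

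Among the other genes at E12.5, *Cdk4* was at 633.1, 651.1 and 630.7 CPM in mutants against 536.6, 549.4 and 611.2 CPM, a difference of 0.17 (SE 0.07, adjusted p = 0.20). The large mitotic genes *Kif11*, *Cenpe*, *Mki67* and *Cenpf* had differences of -0.24, -0.24, -0.19 and -0.24 (adjusted p = 0.19, 0.19, 0.22 and 0.23). *Kif11* was at 132.4, 147.8 and 138.1 CPM in mutants against 189.4, 145.6 and 157.5 CPM, and *Cenpe* at 105.8, 127.0 and 132.4 CPM against 160.9, 134.5 and 136.5 CPM. *Mki67* encodes the proliferation antigen Ki-67, and was at 331.6, 306.8 and 367.3 CPM against 403.7, 388.0 and 358.0 CPM. The groups overlapped for *Kif11* and *Mki67* and not for *Cenpe*. *Cdkn1b*, the regulator with the lowest p, was at 63.7, 58.9 and 53.9 CPM against 59.4, 50.1 and 58.5 CPM, a difference of 0.07. Here too length moved with the values, with a Spearman rho of -0.290 over all genes, a median of -0.07 for all genes over 4000 bases and one of -0.22 for the 6 mitotic genes of that length. The S phase genes had a median of -0.05, with 14 of 17 lower, and the mitotic genes one of -0.0016, with 9 of 17 lower. Against the median of all genes in the same length class, 16 of 17 S phase genes and 9 of 17 mitotic genes were lower. Over all genes the median was -0.0018. Of 10 erythroid markers, 6 were called lower in the E12.5 mutants, and of 6 macrophage markers 3 were. The part of the blood cells, which in the embryo include dividing erythroblasts, was not tested.

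**Figure D4:**
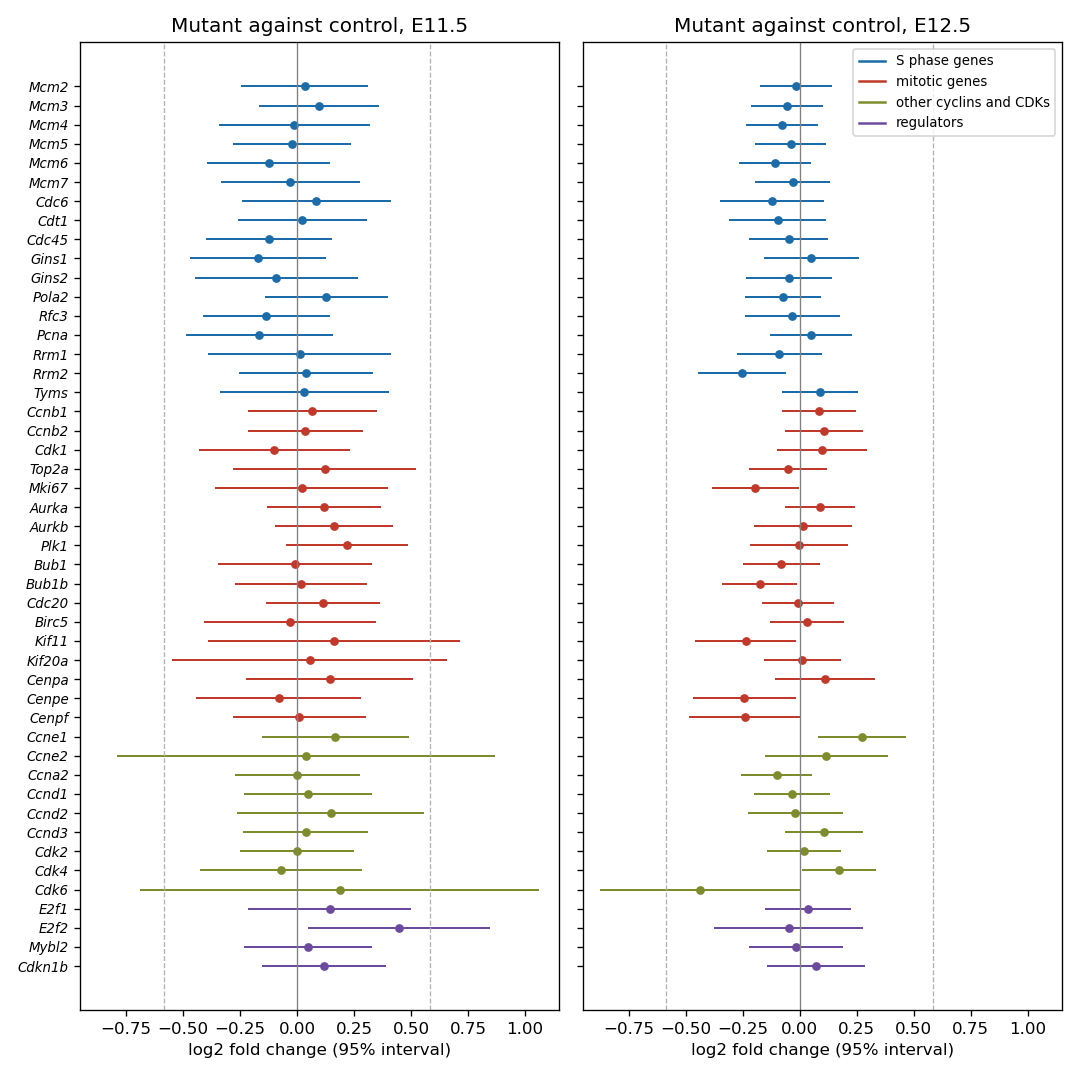
Log2 fold change of mutant against control with its 95% interval for each of the 47 genes at E11.5 (left) and E12.5 (right), ordered and coloured by role, with dashed lines at a fold of 1.5 either way. Intervals are wider at E11.5, where those of *Kif11*, *Kif20a*, *Ccne2*, *Cdk6* and *E2f2* cross a dashed line, and at E12.5 only that of *Cdk6* does.

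The mutant differences at E11.5 and E12.5, which share no library, had the same sign in 22 of the 47 genes, or 46.8%, against 61.0% of all genes. Mutants lay above controls without overlap at both stages in 1 of the 47, *Aurka*, a centrosomal kinase, against 428 of 12270 genes. *Aurka* was at 83.9, 84.6 and 91.3 CPM against 78.1, 80.3 and 80.5 CPM at E11.5. At E12.5 it was at 83.1, 83.2 and 87.0 CPM against 80.1, 78.3 and 79.6 CPM. Over both stages its log2 difference was 0.11 (SE 0.05, adjusted p = 0.31). *Ccne1* over both stages had a difference of 0.22 (SE 0.08, adjusted p = 0.13), *Mcm6* one of -0.11, *E2f2* one of 0.20, *Cenpe* one of -0.16 and *Plk1* one of 0.11. *Mcm6* was at 298.8, 298.9 and 285.1 CPM in E11.5 mutants and at 254.0, 262.5 and 276.9 CPM in E12.5 mutants, against 314.5, 298.0 and 347.6 CPM and 293.0, 275.7 and 286.1 CPM in controls. A test of the difference between the 2 mutant effects called 0 of the 47 and 0.00% of 12270 genes. DESeq2 called 0 of the 47, and 43 of 12270 genes had an adjusted p of 0.05 or less by it. By edgeR 1 of the 47 had an unadjusted p under 0.05, against 4.49% of all genes. That 1 was *E2f2*, whose effect was lower at E12.5 than at E11.5 by -0.50 (SE 0.23, adjusted p = 0.96). Next in order of p were *Rrm2* at -0.29, *Pola2* at -0.20 and *Plk1* at -0.22. For both stages together, 34 of the 47 intervals of this difference lay within a fold of 1.5.

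**Figure D5:**
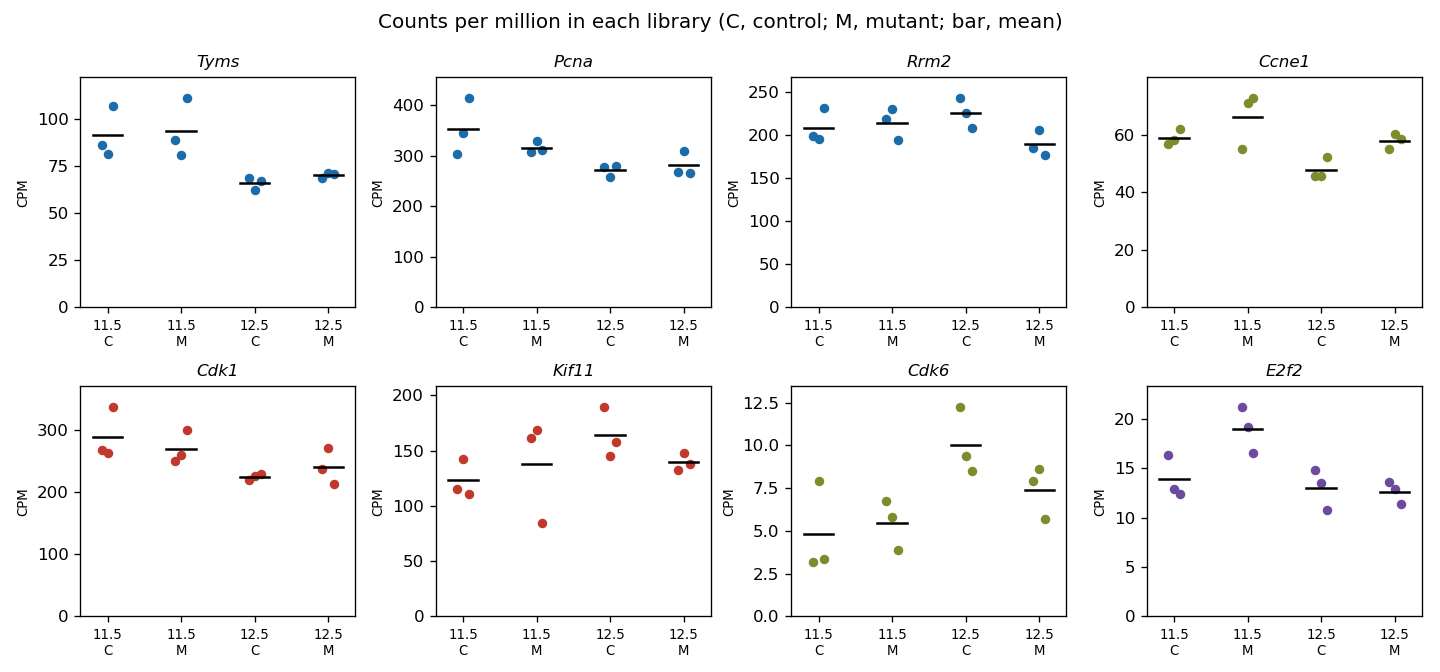
CPM in each library for 8 genes, with points for libraries, bars for group means (n = 3) and colours by role as in the other plots. *Tyms*, *Pcna* and *Cdk1* are highest in the E11.5 groups, *Ccne1* is lowest in the E12.5 controls, and 1 E11.5 mutant library is low for *Kif11*.

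Further replication genes followed the listed S phase genes between stages. Of 44, 34 were lower at E12.5 in controls with a median of -0.16, and 39 were lower in mutants with a median of -0.17. In controls 3 had an adjusted p of 0.05 or less, all lower, against 5.81% of all genes. They were *Orc6*, of the origin recognition complex, at -0.52 (SE 0.12, adjusted p = 0.029), *Rpa3*, of the single-strand binding complex, at -0.55 (SE 0.13, adjusted p = 0.031), and the clamp loader gene *Rfc2* at -0.34 (SE 0.10, adjusted p = 0.049). *Orc6* was at 91.8, 79.6 and 103.3 CPM in E11.5 controls and at 60.5, 60.7 and 70.1 CPM in E12.5 controls. None of the 3 had an adjusted p of 0.05 or less with a sex term or with the length trend removed, where *Orc6* was at 0.052. *Rpa3*, at 638 bases, is among the shortest genes. In mutants 0 of the 44 passed, and 10 had an unadjusted p under 0.05, against 9.27% of all genes, with *Rpa3* at -0.57 and *Orc6* at -0.35 the lowest in p. In the mutant against control comparisons 0 of the 44 passed, and 2 at E11.5 and 4 at E12.5 had an unadjusted p under 0.05, against 10.2% and 21.4% of all genes. The lowest p at E12.5 were those of *Clspn* at -0.30 and *Gins3* at -0.29 (adjusted p = 0.063 and 0.17), and at E11.5 those of *Rfc5* at 0.35 and *Ung* at 0.31 (adjusted p = 0.34 and 0.45).

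Of 55 further mitotic genes, 31 were higher and 24 lower at E12.5 in controls, with a median of 0.03. *Cenpw*, a kinetochore gene, was the 1 gene called, at -0.66 (SE 0.13, adjusted p = 0.024), against 5.28% of all genes, and *Cks2*, a CDK1 subunit, had a difference of -0.46 (adjusted p = 0.032). *Hmmr*, of the mitotic spindle, and *Prc1*, of the central spindle, were higher, at 0.49 and 0.35 (adjusted p = 0.034 and 0.049), where 5.63% of all genes were higher at that adjusted p. *Cks2* is 694 bases long, and with the length trend removed its adjusted p was 0.70. With a sex term the adjusted p of *Cenpw*, *Cks2*, *Hmmr* and *Prc1* was 0.52, 0.53, 0.51 and 0.55. In mutants 18 were higher and 37 lower, with a median of -0.07, and 0 passed, *Melk* and *Fzr1* having the lowest p at -0.23 and -0.24. In the mutant against control comparisons 0 passed, with 2 at E11.5 and 5 at E12.5 at an unadjusted p under 0.05, against 10.2% and 21.4% of all genes. The lowest p at E12.5 were those of *Cks2* at 0.25 and *Smc2* at -0.25 (adjusted p = 0.072 and 0.16), and at E11.5 those of *Nek2* and *Cdca8*, both at 0.33 (adjusted p = 0.36 and 0.45).

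Among 8 tested genes of CDK inhibitors and pocket proteins, which hold the cycle back, 2 rose in mutants. *Cdkn1c*, the imprinted inhibitor p57, was at 939, 896 and 890 CPM in the E12.5 mutants and at 638, 652 and 736 CPM in the E12.5 controls, and rose by 0.43 on the log2 scale (SE 0.08, adjusted p = 0.012). *Cdkn1a*, the p53-responsive inhibitor p21, was at 31.0, 26.1 and 25.8 CPM against 16.0, 21.4 and 18.1 CPM, and rose by 0.58 (SE 0.13, adjusted p = 0.028). Neither reached the fold of 1.5, and at that adjusted p 2.73% of all genes were higher. At E11.5 their differences were 0.32 and 0.43 (adjusted p = 0.52 and 0.50) for *Cdkn1c* and *Cdkn1a*, and over both stages 0.37 and 0.50 (adjusted p = 0.014 and 0.025), where 3.69% of all genes were higher. At E12.5 each had an adjusted p above 0.05 when any of 3 single libraries was left out, at 0.059 to 0.0998 for *Cdkn1a* (control replicate 1 or 3, mutant replicate 1) and at 0.052 to 0.058 for *Cdkn1c* (control replicate 1 or 2, mutant replicate 1). In 1 fit of all 12 libraries the adjusted p was 0.14 for *Cdkn1a* and 0.093 for *Cdkn1c*. *Cdkn1c* was also lower at E12.5 than at E11.5 in controls, by -0.44 (adjusted p = 0.032), and *Rbl1*, the pocket protein p107, was higher, by 0.46 (adjusted p = 0.039). With a sex term the adjusted p was 0.54 (*Cdkn1c*) and 0.52 (*Rbl1*).

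Of 14 further E2F, DP and MuvB genes, 1 was called between stages in controls, against 5.28% of all genes. It was *E2f5*, a repressive E2F, at 49.1, 45.8 and 52.9 CPM and then at 29.2, 29.3 and 39.7 CPM, a log2 difference of -0.59 (SE 0.13, adjusted p = 0.029). Its adjusted p was 0.54 with a sex term and 0.053 with the length trend removed. The difference in mutants was -0.40 (adjusted p = 0.25). In the mutant against control comparisons 0 of the 14 passed, and the lowest p at E12.5 was that of *E2f8*, at -0.26 (adjusted p = 0.098), with *Tfdp1* next at -0.15, and at E11.5 those of *E2f5* at -0.21 and *E2f8* at 0.32 were lowest. The row that merges *Foxm1* with *4933413G19Rik* was at 56.7 to 76.5 CPM in E11.5 controls and 73.0 to 77.1 CPM in E12.5 controls, and at 67.2 to 68.8 CPM in E12.5 mutants, with a mutant difference at E12.5 of -0.13 (SE 0.07, adjusted p = 0.30).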

How the data were processed

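Total RNA was sequenced from 12 heart samples in 4 groups of 3. Per the labels, reads were mapped with Bowtie2 to mm10. The deposited values, named RPKM by the authors, proved to be whole counts multiplied by gene length and a library factor. Average expected counts per group, which the authors also deposited, let each count be recovered, within 2.75e-08 of a whole number, for 17827 genes. The authors' own fold changes and p-values were not used. Counts were scaled by TMM and tested in edgeR 4.0.16 by its quasi-likelihood test, with genes at a mean RPKM of at least 0.5 and Benjamini-Hochberg adjustment over all genes tested, after the step was tested on simulated data. With 3 libraries against 3, an exact permutation test cannot go below p = 0.1, so none was used for single genes. The alternatives were other filters and scalings, DESeq2 1.42.0, a sex term, a replicate block, 1 fit of all libraries, each library left out and, added later, removal of length and GC trends.

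The genes and lists were chosen with earlier results of these data known. Values are given for called genes or those of lowest p until 6 were reached in a comparison and for at least 1 gene of each role, and in further lists for called genes or the 2 of lowest p; *Rfc2*, *Cks2*, *Hmmr*, *Prc1* and the widest, overlapping or length-linked genes were named after their values were seen. Promoters came from RefSeq, which matched 38 of the 47 genes.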

Additional observations from a re-analysis of the deposited data

How the results depend on the processing

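The count of called genes among the 47 stayed at 0 in both mutant comparisons by stage, over both stages and for the difference between stages, under every alternative run. Between stages in controls it was 1 with no filter, with DESeq2 and with the replicate block (*Cdk6* each time), and 1 with no fold threshold (*Tyms*), and it ranged from 0 to 1 when 1 library was left out. Between stages in mutants it was 1 with DESeq2 (*E2f2*). In the mutant against control comparisons, only *Ccne1* reached an adjusted p of 0.05 or less alone. It did so over both stages without the first E11.5 mutant, where 839 of 12266 genes did. At an adjusted p of 0.05 or less alone, between stages in controls, no filter gave 3 higher and 4 lower, against 1844 of 16842 genes. The replicate block gave 1 and 4, against 1860 of 12252. A mean RPKM of at least 5 gave 2 and 1 of 45, against 1255 of 8774. Median-ratio scaling gave 0 and 1, against 1386 of 12252. A fit of all 12 libraries gave 0 and 0, against 542 of 12270, so *Tyms* did not pass there. Removal of the length trend gave 0 and 1 (*Tyms*), against 501 of 12252. Removal of length and GC trends gave 0 and 2 (*Mybl2* and *Tyms*), against 699 of 12252. Without the second E11.5 control there were 3 and 6, against 3067 of 12268, and 0 without any other single library. With a sex term, the genes of the whole table at an adjusted p of 0.05 or less between stages in controls went from 1402 to 19. All E11.5 controls were male, and of the E12.5 controls only replicate 3 was. A lower precision of that fit and an effect of sex cannot be told apart here. The S phase minus mitotic difference between stages was -0.21 in controls, -0.12 with the length trend removed and -0.13 with length and GC trends removed, with -0.24 to -0.17 when 1 library was left out. The mutant difference in it at E11.5 was -0.075, and -0.066 without the length trend. The mutant difference in it at E12.5 was -0.013, and 0.033 by the median over genes, -0.044 without the length trend and -0.046 without both trends, with -0.025 to 0.0051 when 1 library was left out. *Cenpf* between stages in controls went from 0.36 to -0.0076 without the length trend, *Rpa3* from -0.55 to 0.0037 without both trends, and *Cdkn1b* in the E12.5 mutants was at 0.07, with -0.0047 (without the second control) to 0.13 when 1 library was left out. Where not given by the alternative itself, the cause was not tested.

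Whether replicate numbers pair the samples was not settled. Correlations of same-numbered libraries ran from -0.121 to 0.425, and not every pair was above 0.1. Between E11.5 mutants and controls they were 0.425 for replicate 2 and 0.293 for replicate 3. Libraries of different number were not compared, so these values cannot exclude pairing. The block gave the count of 1 above and 0 in the other comparisons of the 47 genes. The intervals at E11.5 reached past a fold of 1.5 for *Cdk6*, *E2f2*, *Kif11*, *Kif20a* and *Ccne2*, and the part of depth in this was not tested.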
